A study of Bos taurus and Ovis aries and Capra hircus with 27 samples.

Results

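Goat gene models whose protein ends in a signal for return to the endoplasmic reticulum were described across heart, liver and kidney. A model was a member if the last 4 residues of its protein, after a final stop was removed, were K, H, R or Q, then D or E, then E and L, and if its identifier carried no copy suffix. The rule used sequence alone and no expression value. It found 33 of 17138 models without such a suffix that had a protein sequence, in a table of 22131 models. A further 3916 models of the table had no protein sequence among those read and could not be examined for the signal, and no model with a copy suffix carried it.

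RNA was sequenced from heart, liver and kidney of adult female goats of the strain labelled indigenous, about 3 years old, with 3 libraries per tissue and 9 in all. The animals were untreated, and the tissues were compared with each other because no other condition was present in the goat libraries. The study lists the goat heart libraries, and not those of liver or kidney, as duplicates of other deposited records. Whether heart was prepared or sequenced apart from the other tissues is not given. The study's methods describe 3 unrelated females from which all tissues were taken. A replicate number was taken to mark an animal, which the methods do not state. These are whole tissue samples, and fewer cells of a type and less RNA per cell cannot be told apart in them.

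The lumen of the endoplasmic reticulum is where secreted and membrane proteins fold. Its resident chaperones and enzymes leave with the vesicle flow, and the KDEL receptor of the Golgi binds their C-terminal tail and returns them. The tail is read only in proteins that enter the lumen, which most do by way of a hydrophobic stretch near the N-terminus. Liver and kidney hold many cells with a large secretory or transport load, whereas heart muscle makes mostly intracellular proteins.

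Of the 33 members, 8 ended in HDEL, 7 in KEEL, 6 in KDEL, 5 in RDEL, 5 in REEL, 1 in HEEL and 1 in QEEL. No member ended in QDEL, the remaining form the rule allowed. The 6 KDEL members had the highest median of mean FPKM (fragments per unit of transcript length and of mapped fragments) of the forms with at least 5 members, at 126, against 41.3 for RDEL, 12.3 for KEEL, 11.1 for HDEL and 5.66 for REEL. A hydrophobic stretch within the first 35 residues was found in 15 of the 33 members (45.5%), against 25.5% of all 17138 proteins. The models were often incomplete at the start, since 10 of the 33 (30.3%) began with methionine, against 56.8% of all proteins. A hydrophobic stretch can therefore have been missed in some models. Members had a median length of 510 residues, from 122 to 1471, against 337 for all proteins. In the 20 residues before the signal, the median share of acidic residues was 15% in members and 10% in all proteins.

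The identifiers came without gene names, and members were therefore grouped by sequence patterns that a search found in them. A pattern was found in 23 members and none in 10, with a pair of very short motifs left aside because they occur in many unrelated proteins. One of these, the letters HPD of J-domains, was found in 2 members and in 806 of all goat proteins. Among the patterns were the active site of protein disulfide isomerases (3 members), the calcium binding EF-hand loop (6), a stretch shared by FKBP-type prolyl isomerases (3), a stretch of the collagen galactosyltransferases (3) and one of the prolyl 3-hydroxylases (2). The signatures of Hsp70 chaperones, calreticulin and calnexin, serpins, type-B carboxylesterases and glutaredoxins were found in 1 member each. The EF-hand loop is short and occurred in 160 of all goat proteins (0.934%), whereas the isomerase active site occurred in 6. A pattern places a model in a family and does not give it a gene name.

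**Figure D1:**
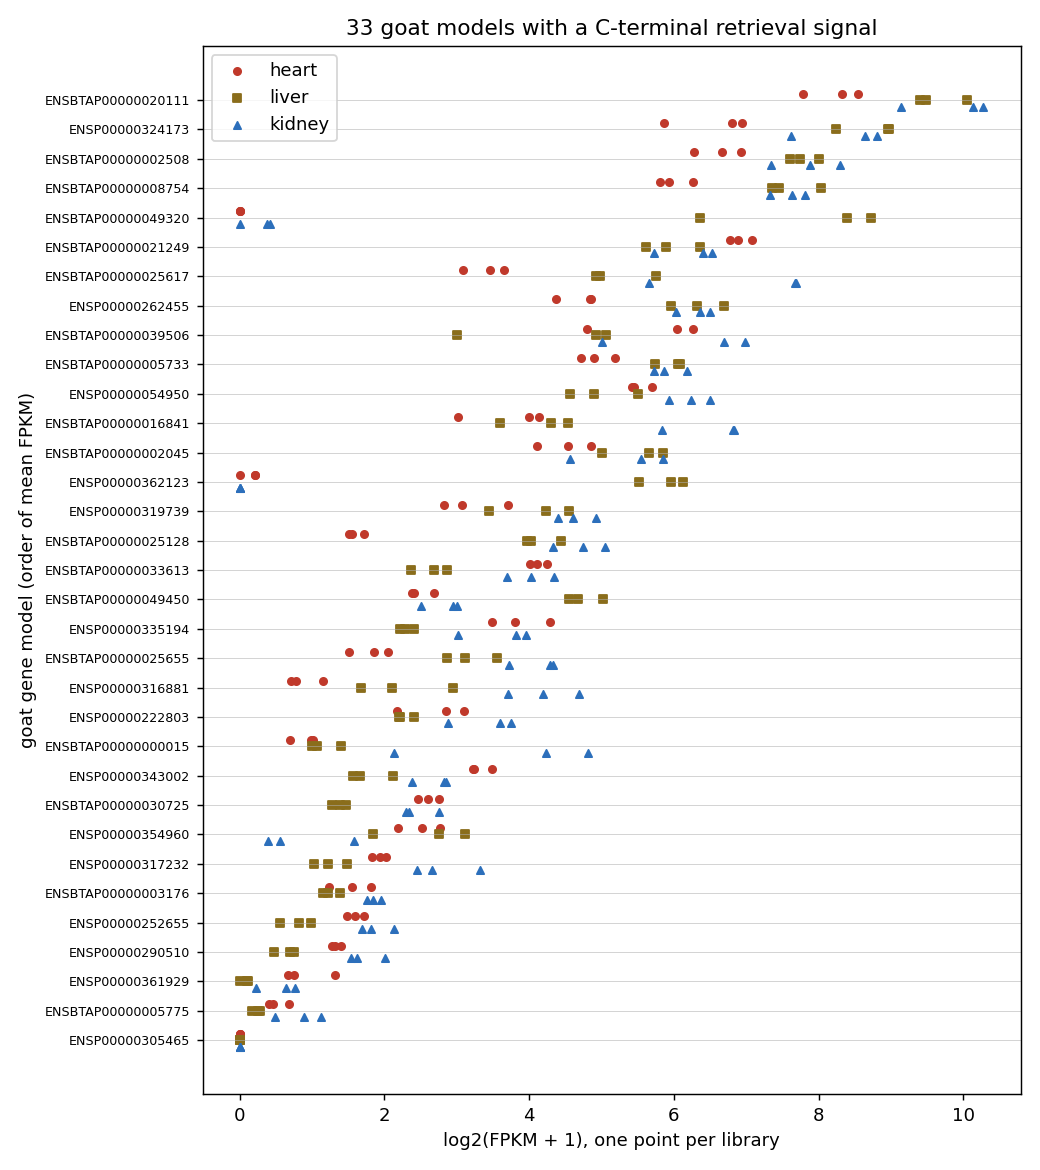
Level of each of the 33 members in each of the 9 goat libraries, as log2(FPKM + 1), with members ordered by mean FPKM (red circles heart, brown squares liver, blue triangles kidney). The 6 highest rows include models low in heart, 1 model (ENSBTAP00000049320) at or near 0 outside liver, and 1 (ENSBTAP00000021249) highest in heart, and the last row is at 0 in every library.

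The members together made up a smaller part of the heart transcriptome than of the other tissues. They took 0.118% ± 0.0246 (SD, n = 3) of the summed FPKM in heart, 0.415% ± 0.0615 in liver and 0.416% ± 0.121 in kidney. The heart libraries ranged from 0.0909% to 0.139%, the liver libraries from 0.371% to 0.485% and the kidney libraries from 0.277% to 0.491%. All 3 heart libraries lay below every liver and kidney library, and liver and kidney overlapped. The highest member took 29.7% to 43.6% of the members' FPKM in each library, and without it the shares were 0.0810%, 0.278% and 0.259%, in the same order. For the 15 members with a hydrophobic N-terminus the shares were 0.0514% in heart, 0.238% in liver and 0.176% in kidney. The liver libraries of this set ranged from 0.210% to 0.273% and the kidney libraries from 0.112% to 0.213%, which overlap. The liver share of every set includes 2 models at or near 0 in heart and kidney. GOAT_ENSBTAP00000049320 had 422, 81.2 and 335 FPKM in liver, and GOAT_ENSP00000362123 had 61.4, 45.0 and 69.1. No share without these 2 was taken. The share is unaffected by a common scaling of a library, but it does depend on the few models that take most of the FPKM.

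**Figure D2:**
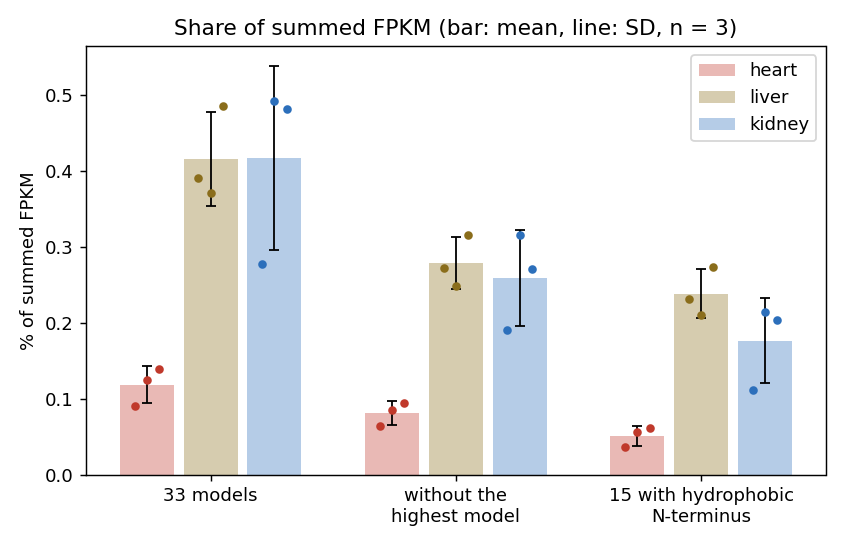
Share of the summed FPKM, in percent, taken by all 33 members, by the members without the highest one and by the 15 members with a hydrophobic N-terminus (bars: mean, lines: SD, points: the 3 libraries of each tissue). Heart lies lowest in each set, at 0.118% for all members against 0.415% in liver and 0.416% in kidney.

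Of the 33 members, 32 exceeded 0.5 FPKM in at least 3 of the 9 libraries and entered the test with 13634 models in all. Of these 32, 2 entered through liver alone. The remaining member, GOAT_ENSP00000305465 (KEEL), was listed at 0 in all 9 libraries. Tissues were compared with limma on log2(FPKM + 1), and a model was called at a Benjamini-Hochberg adjusted p of at most 0.05 over all tested models. On this scale the difference of a low model is understated.

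The deposited values were not centred alike in the 3 tissues. The median difference over all tested models was 0.10 for heart minus liver, -0.55 for heart minus kidney and -0.69 for liver minus kidney. Each comparison is therefore also given after median ratio scaling, in which every library was divided by the median of its ratios to the geometric mean. This scaling brought the medians of all models to -0.04, -0.04 and -0.01.

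Between heart and liver, 14 of the 32 members were higher in liver and 9 higher in heart. Of the 14, 2 passed the filter through liver alone, so their calls follow from the filter. Over all models tested, 19.6% were called higher in liver and 29.6% higher in heart. After median ratio scaling the members split into 15 and 8, beside 26.8% and 27.0% of all models. The same 2 are among the 15. The median difference of the members was -0.34 on the deposited values and -0.52 after scaling. Both medians include the same 2 members, which stood at -7.83 and -5.73 on the deposited values and lower the median. On the deposited values the median moved to -0.12 without heart library 1 and to -0.64 without heart library 2. Without liver library 1, 2 or 3 it was -0.07, -0.15 and -0.19. In each of the fits without a liver library, the 2 members that entered through liver alone no longer passed the filter. The median was then taken over 30 members.

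Between heart and kidney, 15 members were higher in kidney and 3 higher in heart, where 45.3% and 17.9% of all models were called. The share of members higher in kidney (46.9%) was thus close to that of all models. After median ratio scaling 11 members were higher in kidney and 6 in heart, beside 29.1% and 29.0% of all models. The median member difference was -0.70 on the deposited values and -0.13 after scaling.

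Between liver and kidney the direction of the calls turned with median ratio scaling. It did not turn under quantile normalization or when libraries were set to equal summed FPKM. On the deposited values 17 members were higher in kidney and 4 in liver, beside 51.6% and 13.4% of all models. After median ratio scaling 5 were higher in kidney and 11 in liver, beside 25.3% and 26.6% of all models. Both the 4 and the 11 include the 2 members that passed the filter through liver alone, whose calls follow from the filter. The calls shared by both analyses numbered 9 in this comparison, 14 between heart and kidney and 22 between heart and liver, and none of these changed sign. No share of all models is given for these shared calls. The median member difference was -0.60 on the deposited values and -0.15 after scaling. Both medians include the 2 members that passed the filter through liver alone, at 7.56 and 5.87 on the deposited values.

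A member was termed elevated in a tissue if it was called higher there than in both others. On the deposited values this held for 2 members in heart, 3 in liver (2 of them the models that passed the filter through liver alone) and 7 in kidney, where 14.5%, 9.59% and 34.2% of all models met it. After median ratio scaling the numbers were 5, 9 and 3, beside 19.5%, 15.4% and 16.6% of all models. Leaving out any heart library or kidney library 3 left 0 members elevated in heart, and leaving out liver library 1, liver library 2 or kidney library 1 left 1. Leaving out any liver library left 1 elevated in liver, because both members that entered through liver alone then had too few libraries above the filter.

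**Figure D3:**
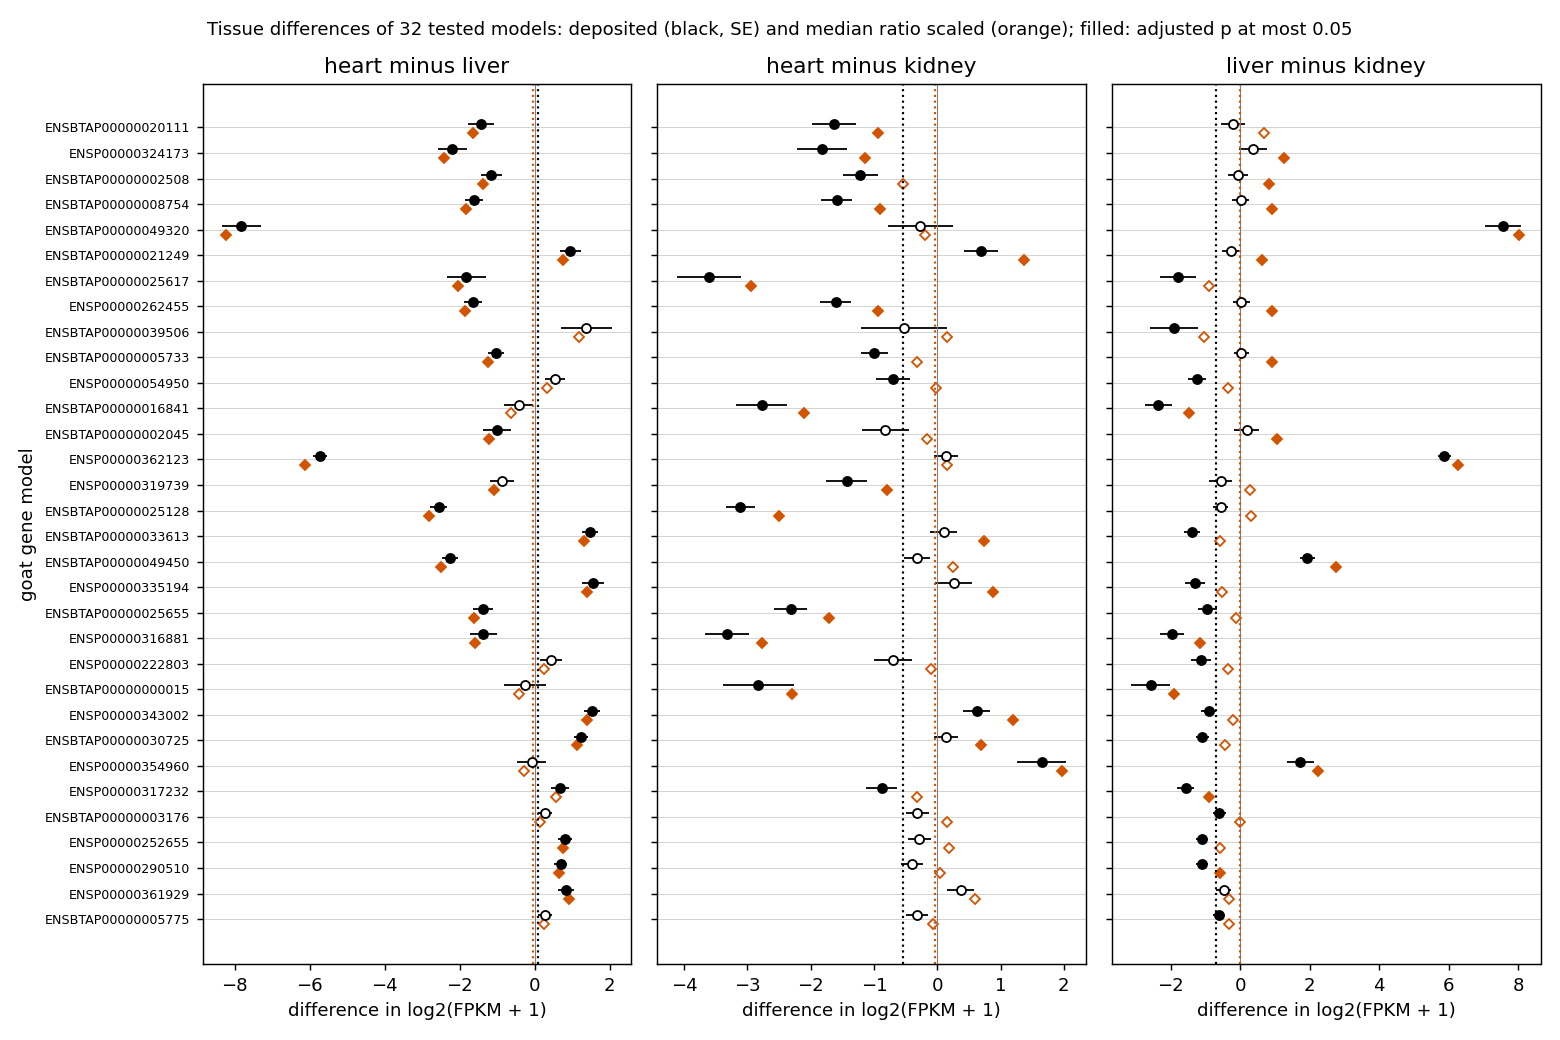
Difference in log2(FPKM + 1) for each of the 32 tested members in the 3 tissue comparisons, on the deposited values (black circles, lines give the SE) and after median ratio scaling (orange diamonds), with filled symbols for calls and dotted lines at the median of all 13634 models. In the heart minus kidney and liver minus kidney panels the black dotted line lies at -0.55 and -0.69, and the orange symbols are mostly shifted to the right of the black ones.

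The 6 KDEL members were lower in heart than in liver. All 6 were called so under both scalings, with differences from -2.19 to -1.16 on the deposited values, where 19.6% of all models were called lower in heart than in liver (26.8% after scaling). Against kidney all 6 were called lower in heart on the deposited values, from -3.61 to -1.22, and 5 of the 6 after scaling, beside 45.3% and 29.1% of all models. Of the 6 tested KEEL members, 4 were called lower in heart than in liver and 3 lower than in kidney under both scalings, and none was called higher in heart. The 4 included GOAT_ENSP00000362123, which passed the filter through liver alone. The single QEEL member did so too, and was likewise called lower in heart than in liver. Of the 8 HDEL members, 3 were higher in heart than in liver and 1 was lower on the deposited values, and of the 5 REEL members 4 were higher and 1 was lower, beside 29.6% of all models higher in heart. No difference between the tail forms was tested. This grouping by tail was made after the values were seen.

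Among the chaperones, the highest member was GOAT_ENSBTAP00000020111 (KDEL, scaffold 437, 1062183 to 1065303, minus strand), which carries the calreticulin and calnexin signature. Calreticulin is a calcium binding lectin that holds newly made glycoproteins while they fold, and it is the protein of that family known to end in KDEL. Its FPKM was 220, 320 and 372 in the heart libraries, 677, 713 and 1058 in liver and 563, 1116 and 1238 in kidney. All heart libraries lay below every liver and kidney library, and liver and kidney overlapped. The heart minus liver difference was -1.42 ± 0.35 (SE; adjusted p 0.00729) and the heart minus kidney difference was -1.63 ± 0.35 (adjusted p 0.00268). Liver and kidney differed by -0.20 ± 0.35, which did not pass the test (adjusted p 0.628).

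The second highest member, GOAT_ENSP00000324173 (KDEL, scaffold 4, 2232052 to 2235761, minus strand), carries the Hsp70 signature and a hydrophobic N-terminus. BiP, the Hsp70 of the endoplasmic reticulum, binds unfolded chains and is known for this combination of features. Its FPKM was 57.2, 110 and 121 in heart, 300.03, 497 and 502 in liver and 196, 448 and 398 in kidney. The heart libraries again lay below all others. The heart minus liver difference was -2.19 ± 0.40 (adjusted p 0.00141) and the heart minus kidney difference was -1.83 ± 0.40 (adjusted p 0.00306). Liver and kidney differed by 0.37 ± 0.40 on the deposited values (adjusted p 0.443) and by 1.27 after median ratio scaling (adjusted p 0.0083). The highest Hsp70-signature model without the tail, GOAT_ENSBTAP00000017497, ends in EEVD as cytosolic Hsp70 proteins do. It had 522 to 830 FPKM in heart and 497 to 800 in liver, ranges that overlap. Other Hsp70-signature models without the tail varied. GOAT_ENSBTAP00000017155 had 5.38 to 10.9 FPKM in heart and 19.1 to 31.1 in liver, and GOAT_ENSP00000247207 had 4.34 to 5.51 and 0.298 to 1.73. Models with and without the tail were not compared by a test.

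Of the 3 members with the disulfide isomerase active site, which forms and reshuffles disulfide bonds in folding proteins, each carried it at 2 places. They shared 25.4% to 34.9% of residues in aligned stretches. GOAT_ENSBTAP00000002508 (KDEL) had 76.6, 101 and 120 FPKM in heart, 193, 212 and 256 in liver and 161, 314 and 235 in kidney. It was lower in heart than in liver (-1.16 ± 0.28, adjusted p 0.00695) and than in kidney (-1.22 ± 0.28, adjusted p 0.00398), and the second call was lost after median ratio scaling (adjusted p 0.0501). Liver was called higher than kidney after that scaling (0.84, adjusted p 0.00802).

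GOAT_ENSBTAP00000025617 (KDEL) had 7.45, 11.6 and 10.03 FPKM in heart, 52.8, 30.6 and 29.4 in liver and 203, 206 and 49.5 in kidney. The heart was lowest in every library, and kidney library 3 fell below liver library 1. The heart minus kidney difference was -3.61 ± 0.51 (adjusted p 0.000251), and that of liver minus kidney was -1.79 ± 0.51 (adjusted p 0.0123). The liver minus kidney call was lost without kidney library 2 (adjusted p 0.0511) and after median ratio scaling (adjusted p 0.206). Its heart minus liver call (-1.82 ± 0.51, adjusted p 0.015) was lost without heart library 1 (adjusted p 0.0531) and under quantile normalization.

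GOAT_ENSBTAP00000025128 (KEEL) had 1.93, 1.84 and 2.29 FPKM in heart, 20.6, 15.3 and 14.6 in liver and 25.9, 31.99 and 19.0 in kidney. It was lower in heart than in liver (-2.55 ± 0.23, adjusted p 1.33e-05) and than in kidney (-3.11 ± 0.23, adjusted p 3.66e-06), with no overlap in either. Its liver minus kidney difference (-0.56 ± 0.23, adjusted p 0.0532) passed with the replicate number as a block (adjusted p 0.0465). The 3 isomerase-type members summed to 86.0 to 133 FPKM in heart, 258 to 300.2 in liver and 304 to 552 in kidney. The model GOAT_ENSBTAP00000002508 made up 88.2% to 90.7% of that sum in heart and 41.3% to 77.4% in kidney. A further model with this site that ends in QEDL, and so falls outside the rule, was the highest of the 6 in the genome set, with 76.1 to 171 FPKM in heart and 429 to 650 in liver.

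GOAT_ENSP00000262455 (RDEL) holds the CRFS site that ERp44, a quality control protein of the early secretory route, has in place of the isomerase site. Its FPKM was 19.6, 27.9 and 27.6 in heart, 61.5, 78.8 and 102 in liver and 64.2, 89.1 and 80.9 in kidney. Heart was lower than liver (-1.64 ± 0.24, adjusted p 0.00042) and than in kidney (-1.61 ± 0.24, adjusted p 0.000384). It was also called higher in liver than in kidney after median ratio scaling (0.92, adjusted p 0.000674). GOAT_ENSBTAP00000008754 (KEEL, 260 residues, hydrophobic N-terminus, no pattern found) followed the same order, with 55.0 to 75.7 FPKM in heart, 162 to 262 in liver and 159 to 223 in kidney. Its heart minus liver difference was -1.61 ± 0.24 (adjusted p 0.000448) and its heart minus kidney difference was -1.59 ± 0.24 (adjusted p 0.000395), and liver exceeded kidney after scaling (0.92, adjusted p 0.00186). The canopy-type member GOAT_ENSBTAP00000005733 (HDEL) had 25.2 to 35.4 FPKM in heart, 52.6 to 66.9 in liver and 52.0 to 71.8 in kidney. It was lower in heart than in liver (-1.03 ± 0.21, adjusted p 0.00261), and its call against kidney (adjusted p 0.00245) was lost after median ratio scaling (adjusted p 0.186), whereas liver was then called higher than kidney (0.93, adjusted p 0.00358).

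Of the members elevated in liver, 2 were near or at 0 elsewhere. GOAT_ENSBTAP00000049320 (QEEL, scaffold 225, 786296 to 798682, minus strand) carries the type-B carboxylesterase signature. Carboxylesterases of the liver lumen hydrolyse esters of drugs and lipids. It was listed at 0 in all 3 heart libraries, stood at 422, 81.2 and 335 FPKM in liver and at 0.335, 0.299 and 0 in kidney. No fold is given against heart. The lowest liver library exceeded every heart and kidney library. Only the liver libraries took this model past the low-value filter, so its place among the liver calls follows from the filter, and its values are a description. The liver minus kidney difference was 7.56 with a pseudocount of 1 and 9.77 with 0.1.

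In the same family, 2 models with the related tails HTEL and HVEL fell outside the rule. The HTEL model, GOAT_ENSP00000317842, had 728, 260 and 459 FPKM in liver, and no heart or kidney library exceeded 4.58. GOAT_ENSP00000362123 (KEEL, 195 residues, hydrophobic N-terminus, no pattern found) had 61.4, 45.0 and 69.1 FPKM in liver, 0, 0.155 and 0.155 in heart, and was listed at 0 in every kidney library. It too passed the filter through liver alone, and its values are likewise a description. GOAT_ENSBTAP00000049450 (KEEL, no pattern found) had 24.6, 31.5 and 22.4 FPKM in liver against 5.46, 4.21 and 4.32 in heart and 4.68, 6.99 and 6.69 in kidney. The heart minus liver difference was -2.26 ± 0.21 (adjusted p 1.94e-05) and the liver minus kidney difference 1.93 ± 0.21 (adjusted p 5.27e-05), and liver overlapped with neither tissue.

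The 3 members with the collagen galactosyltransferase stretch, known from enzymes that add galactose to collagen and from a relative without that activity, differed in tissue. They shared 49.4% to 67.0% of residues over nearly their whole length. GOAT_ENSBTAP00000016841 (RDEL, scaffold 510, 2240983 to 2261187, plus strand) had 7.12, 16.6 and 14.9 FPKM in heart, 11.1, 18.8 and 22.2 in liver and 55.9, 112 and 113 in kidney. It was higher in kidney than in heart (heart minus kidney -2.78 ± 0.40, adjusted p 0.000259) and than in liver (liver minus kidney -2.35 ± 0.40, adjusted p 0.000715), and it was elevated in kidney under both scalings. Its difference between heart and liver (-0.43 ± 0.40, adjusted p 0.407) passed the test when the replicate number was a block (adjusted p 0.0385).

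GOAT_ENSP00000354960 (RDEL) went the other way. It had 3.57, 4.72 and 5.82 FPKM in heart, 7.68, 5.75 and 2.60 in liver and 1.98, 0.311 and 0.474 in kidney. It was higher than in kidney in heart (1.65 ± 0.39, adjusted p 0.00484) and in liver (1.73 ± 0.39, adjusted p 0.00373), without overlap. The third, GOAT_ENSP00000361929 (RDEL), stayed low, with 0.584 to 1.5004 FPKM in heart, 0 to 0.0795 in liver and 0.168 to 0.700 in kidney. Heart exceeded liver by 0.84 ± 0.21 (adjusted p 0.00848). Its liver minus kidney difference (-0.47 ± 0.21, adjusted p 0.075) passed with the block (adjusted p 0.0464). The first of the 3 made up 95.4% to 99.4% of their summed FPKM in kidney and 58.4% to 75.8% in heart.

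**Figure D4:**
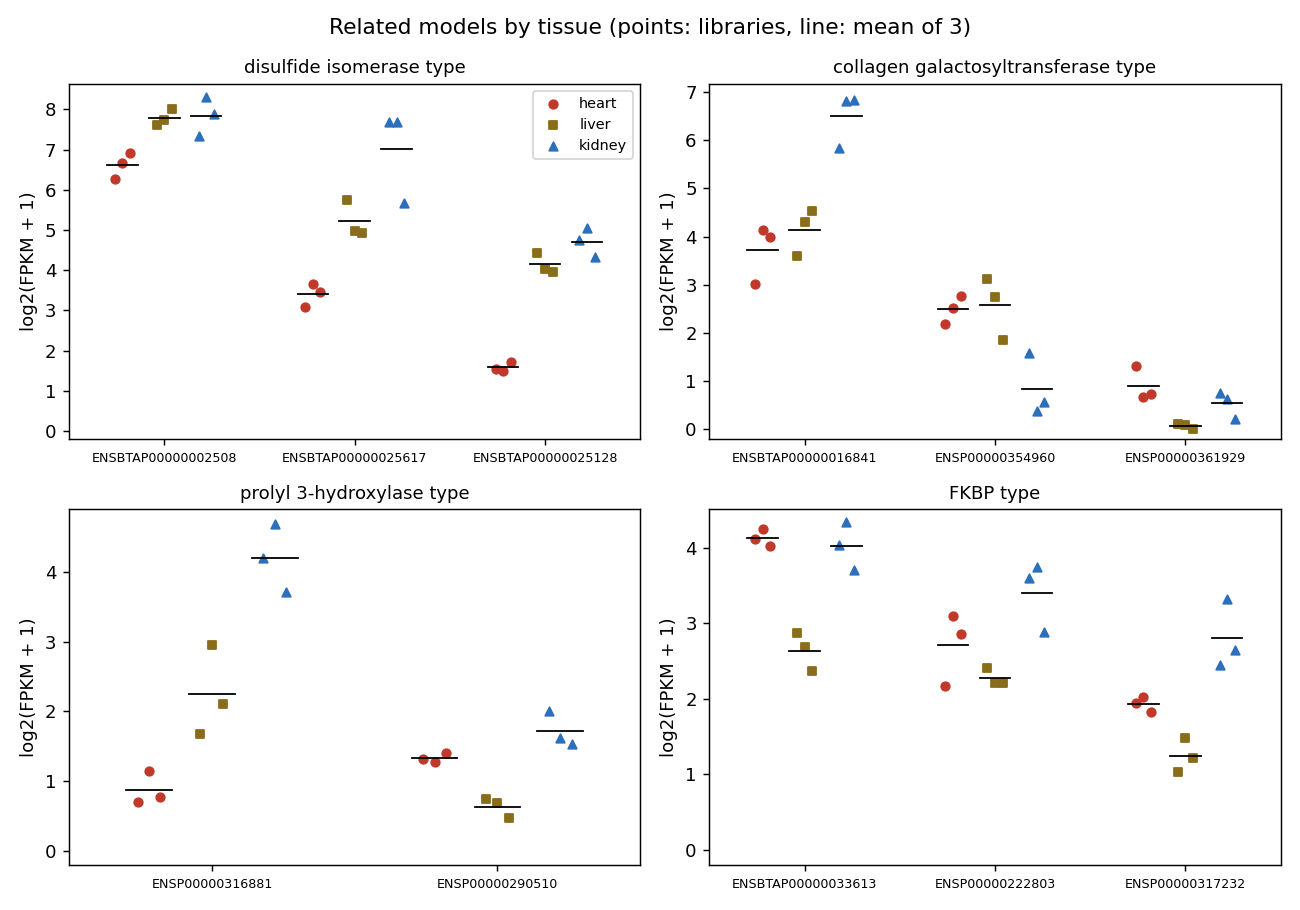
log2(FPKM + 1) of related members in each library (points) with the mean of 3 (line), for the disulfide isomerase, collagen galactosyltransferase, prolyl 3-hydroxylase and FKBP types. Relatives differ in tissue, as with GOAT_ENSBTAP00000016841, whose kidney libraries reach 55.9 to 113 FPKM, and GOAT_ENSP00000354960, whose kidney libraries lie at 0.311 to 1.98.

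Prolyl 3-hydroxylases add a hydroxyl group to prolines of collagen. Of their 3 models here, 2 carried the tail, and these shared 37.4% of residues. GOAT_ENSP00000316881 (KDEL) had 0.628, 1.22 and 0.713 FPKM in heart, 2.196, 6.71 and 3.30 in liver and 17.3, 24.7 and 12.1 in kidney. It was elevated in kidney under both scalings, with a heart minus kidney difference of -3.32 ± 0.35 (adjusted p 4.02e-05) and a liver minus kidney difference of -1.95 ± 0.35 (adjusted p 0.00105). GOAT_ENSP00000290510 (REEL) had 1.41 to 1.63 FPKM in heart, 0.384 to 0.677 in liver and 1.899 to 3.02 in kidney. It was lower in liver than in heart (0.69 ± 0.17, adjusted p 0.00818), whereas the first was higher in liver than in heart. GOAT_ENSP00000290510 was also lower in liver than in kidney (-1.09 ± 0.17, adjusted p 0.0005). That call held after median ratio scaling (-0.59, adjusted p 0.0359), so both models were called higher in kidney than in liver under both scalings.

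GOAT_ENSBTAP00000039506 (RDEL, hydrophobic N-terminus) carries the serpin signature. HSP47, a serpin without protease inhibition that accompanies procollagen out of the endoplasmic reticulum, is known for such a tail. Its FPKM was 26.9, 75.9 and 64.9 in heart, 6.98, 32.4 and 29.3 in liver and 31.2, 103 and 125 in kidney. The tissues overlapped, and library 1 was the lowest of each tissue. Only the liver minus kidney difference of the 3 passed the test (-1.902 ± 0.68, adjusted p 0.0338), and it was lost without liver library 1 (-1.24, adjusted p 0.114), kidney library 2 (adjusted p 0.104) or kidney library 3 (adjusted p 0.112), and after median ratio scaling (-1.03, adjusted p 0.184). With the replicate number as a block all 3 differences passed, with adjusted p of 0.000527 for heart minus liver (1.38), 0.0394 for heart minus kidney (-0.52) and 8.12e-05 for liver minus kidney.

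The prolyl isomerases of the FKBP type speed the turning of proline bonds, and those of the endoplasmic reticulum often carry EF-hands as well. The stretch searched here was chosen after the sequences were seen, and all 3 models that hold it were members with an EF-hand loop. The general FKBP signature was found in 12 goat proteins, of which 0 were members, so goat FKBP models without the tail exist. GOAT_ENSBTAP00000033613 (HDEL, FKBP stretch at 4 places) had 16.3, 17.9 and 15.2 FPKM in heart, 6.31, 5.42 and 4.15 in liver and 15.3, 19.3 and 11.98 in kidney. Liver was lower than heart (1.48 ± 0.22, adjusted p 0.000383) and than in kidney (-1.39 ± 0.22, adjusted p 0.000479), and the second call was lost after median ratio scaling (adjusted p 0.0965), under which heart was called higher than kidney (0.74, adjusted p 0.0364). GOAT_ENSP00000317232 (HEEL, 60.2% identical to it) had 2.55 to 3.05 FPKM in heart, 1.05 to 1.79 in liver and 4.44 to 9.002 in kidney. It was higher in kidney than in liver (-1.56 ± 0.24, adjusted p 0.00044). Its call of heart over liver (adjusted p 0.0408) was lost without any of heart libraries 1 to 3 (adjusted p 0.0741 to 0.113), liver library 1 (0.109) or liver library 3 (0.0876), and after median ratio scaling (adjusted p 0.0514).

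GOAT_ENSP00000335194 (HDEL, 2 EF-hand loops), 42.3% identical to the smallest FKBP-type member, had 10.2, 12.9 and 18.6 FPKM in heart, 3.88, 3.66 and 4.30 in liver and 7.09, 14.6 and 13.2 in kidney. It was higher in heart than in liver (1.56 ± 0.29, adjusted p 0.00165) and lower in liver than in kidney (-1.295 ± 0.29, adjusted p 0.00354), and the second call was lost after median ratio scaling (adjusted p 0.098), under which heart was called higher than kidney (0.89, adjusted p 0.0104). The smallest FKBP-type member, GOAT_ENSP00000222803 (HDEL), had 3.61 to 4.32 FPKM in liver, 3.51 to 7.54 in heart and 6.36 to 12.4 in kidney. It was called between liver and kidney alone (-1.13 ± 0.30, adjusted p 0.00794), and that call was lost after median ratio scaling (adjusted p 0.335).

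Of the members with several EF-hand loops, a mark of the reticulocalbin family of calcium binding proteins, GOAT_ENSP00000054950 (HDEL, 4 loops) had 41.6 to 51.0 FPKM in heart, 22.7 to 44.2 in liver and 59.99 to 89.2 in kidney. It was higher in kidney than in liver (-1.24 ± 0.26, adjusted p 0.00267). Its heart minus kidney call (-0.70, adjusted p 0.0414) was lost without any of heart libraries 1 to 3 (adjusted p 0.0569 to 0.109), kidney library 1 (0.079) or kidney library 2 (0.143), and both calls were lost after median ratio scaling. GOAT_ENSP00000319739 (HDEL, 5 loops) had 6.10 to 12.1 FPKM in heart, 9.90 to 22.5 in liver and 20.04 to 29.2 in kidney, and was called lower in heart than in kidney (-1.43 ± 0.33, adjusted p 0.00406). Against liver the difference was -0.87 ± 0.33 (adjusted p 0.0525), and it passed with the block (adjusted p 0.0252) and after median ratio scaling (adjusted p 0.00616).

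In glycan quality control, GOAT_ENSBTAP00000025655 (KDEL) holds a stretch shared by class I mannosidases and the EDEM proteins, which mark misfolded glycoproteins for degradation. It had 1.84, 2.61 and 3.14 FPKM in heart, 6.27, 10.8 and 7.64 in liver and 18.6, 19.2 and 12.2 in kidney. Heart was below liver (-1.38 ± 0.26, adjusted p 0.00178) and than in kidney (-2.31 ± 0.26, adjusted p 5.96e-05). Its liver minus kidney call (-0.94 ± 0.26, adjusted p 0.0105) was lost after median ratio scaling (adjusted p 0.742). GOAT_ENSBTAP00000005775 (HDEL, 1471 residues), with a stretch of the glucosyltransferases that check glycoprotein folding, had at most 1.19 FPKM in any library, and its liver minus kidney call (-0.60, adjusted p 0.0151) was lost after median ratio scaling (adjusted p 0.123). Without heart library 2, kidney library 1 or kidney library 2 this model no longer passed the filter.

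On the deposited values 2 members were called higher in heart than in both other tissues. The more abundant of them, GOAT_ENSBTAP00000021249 (REEL, 122 residues), carries the glutaredoxin active site. Glutaredoxins are mostly cytosolic and mitochondrial, no hydrophobic N-terminus was found in this model, and the tail alone does not place it in the lumen. Its FPKM was 117, 109 and 134 in heart, 58.3, 47.9 and 81.2 in liver and 51.6, 91.5 and 83.4 in kidney, and heart overlapped with neither. Heart exceeded liver by 0.96 ± 0.27 (adjusted p 0.0155) and kidney by 0.70 ± 0.27 (adjusted p 0.0475). The call against liver was lost without heart library 3 (adjusted p 0.0582) or liver library 2 (adjusted p 0.0639). The call against kidney was lost without any of heart libraries 1 to 3 (adjusted p 0.0756 to 0.134), liver library 1 (0.0533), kidney library 1 (0.15) or kidney library 3 (0.0603), and without the low-value filter. Both calls held after median ratio scaling, where liver was also called higher than kidney (0.63, adjusted p 0.037), and both were lost when libraries were set to equal summed FPKM.

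GOAT_ENSP00000343002 (REEL, no pattern found) had 8.30, 8.44 and 10.2 FPKM in heart, 3.35, 2.17 and 1.95 in liver and 6.09, 6.24 and 4.22 in kidney. Heart exceeded liver by 1.53 ± 0.22 (adjusted p 0.00031) and kidney by 0.62 ± 0.22 (adjusted p 0.0305), without overlap. The call against kidney was lost without any of heart libraries 1 to 3 (adjusted p 0.0516 to 0.103) or kidney library 3 (adjusted p 0.114) and at equal summed FPKM, and liver minus kidney (-0.91, adjusted p 0.00512) was lost after median ratio scaling (adjusted p 0.57). GOAT_ENSBTAP00000030725 (HDEL, no pattern found) had 4.51 to 5.74 FPKM in heart, 1.42 to 1.76 in liver and 3.92 to 5.77 in kidney, and heart exceeded liver by 1.23 ± 0.19 (adjusted p 0.000445). Its liver minus kidney call (-1.09, adjusted p 0.00074) was lost after median ratio scaling (adjusted p 0.0852), whereas heart was then called higher than kidney (0.69, adjusted p 0.0135).

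GOAT_ENSBTAP00000000015 (KEEL, no pattern found) had 0.621, 1.02 and 0.971 FPKM in heart, 1.00, 1.10 and 1.63 in liver and 3.38, 17.7 and 27.1 in kidney. It was elevated in kidney under both scalings, with a heart minus kidney difference of -2.83 ± 0.56 (adjusted p 0.00187) and a liver minus kidney difference of -2.57 ± 0.56 (adjusted p 0.00316). The kidney libraries did not overlap with the other tissues and spread widely among themselves. GOAT_ENSBTAP00000002045 (REEL, no pattern found) had 16.2 to 28.0 FPKM in heart, 31.2 to 56.8 in liver and 22.6 to 56.5 in kidney. Its call of liver over heart (-1.01 ± 0.37, adjusted p 0.0465) was lost without heart library 1 (adjusted p 0.151), heart library 2 (0.0993), liver library 2 (0.123), liver library 3 (0.135) or kidney library 2 (0.0592), and its heart minus kidney difference (adjusted p 0.078) passed with the block (adjusted p 0.00261). Liver was called higher than kidney after median ratio scaling (1.07, adjusted p 0.0119). The models GOAT_ENSBTAP00000003176 (KEEL) and GOAT_ENSP00000252655 (REEL) stayed at or below 3.39 FPKM. Heart exceeded liver by 0.81 ± 0.18 (adjusted p 0.00494) in the second of these. In the first, liver minus kidney was -0.60 ± 0.18 (adjusted p 0.0175), and the call was lost without kidney library 2 (adjusted p 0.0624) and after median ratio scaling (adjusted p 0.999).

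The members were lowest under replicate number 1 about as often as all models on the deposited values: this held in every tissue for 8 of the 32 tested members, beside 23.9% of all models. After median ratio scaling it held for 5, beside 9.95% of all models. The serpin-type, Hsp70-type, ERp44-type and first galactosyltransferase-type models and GOAT_ENSBTAP00000002045 were the 5 that were lowest there in all 3 tissues under both. The counts are a description and have no test.

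**Figure D5:**
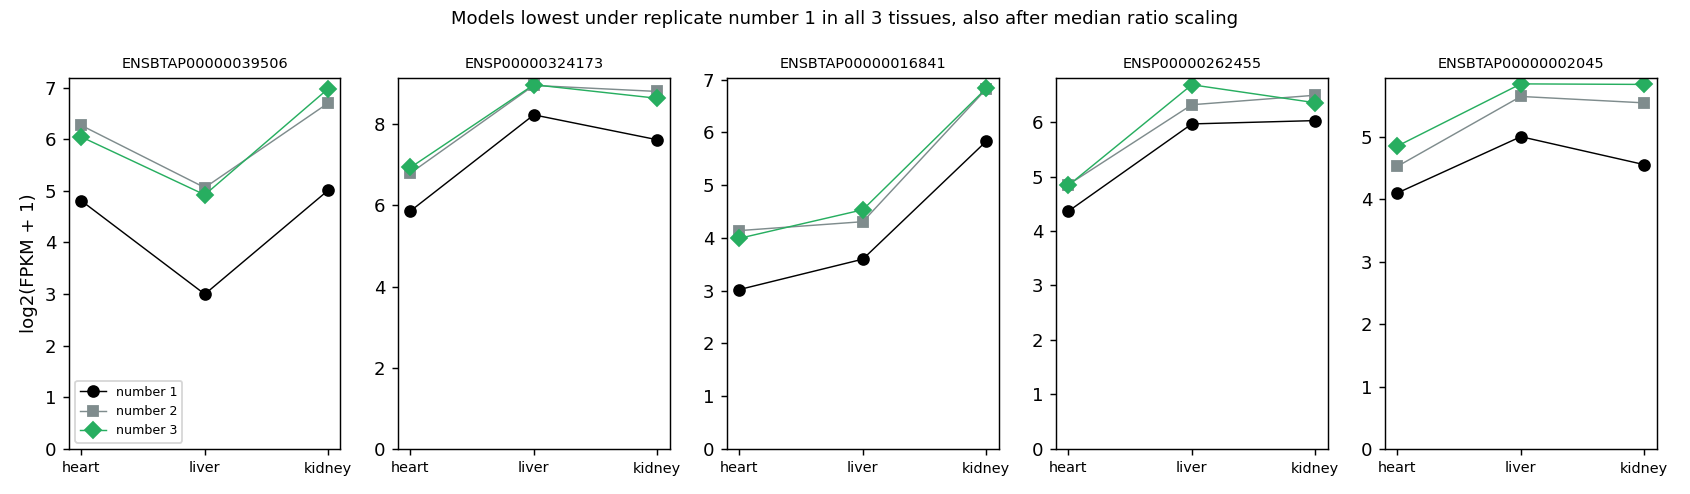
log2(FPKM + 1) of the 5 members that were lowest under replicate number 1 in heart, liver and kidney both before and after median ratio scaling, with lines joining libraries of the same number. The serpin-type model ENSBTAP00000039506 shows the widest gap, with 6.98 FPKM in liver library 1 against 32.4 and 29.3 in the others.

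The liver label was checked with albumin-family models, of which GOAT_ENSP00000421725 had 4022 to 4200.2 FPKM in the liver libraries and at most 6.55 elsewhere. Another, GOAT_ENSBTAP00000022763, was listed at 0 in liver library 1 and at 11676 and 9247 in the other 2, so that a listed 0 may be a failed estimate, and it reached 76.2 FPKM in kidney. A different family model, GOAT_ENSBTAP00000028636, went the other way at low levels, with 0.545 to 1.65 FPKM in liver, 4.01 to 8.44 in heart and 6.21 to 10.4 in kidney. The heart and kidney labels were not settled by such patterns, since the natriuretic peptide signature was found in 0 goat proteins. The aquaporin signature was found in 9, whose highest model by mean FPKM, GOAT_ENSBTAP00000017894, was highest in liver. GOAT_ENSP00000219660 was also highest in liver, and GOAT_ENSBTAP00000000993 had 52.8 to 83.5 FPKM in heart and 7.57 to 16.6 in kidney. The less abundant GOAT_ENSBTAP00000011196 had 13.1 to 65.9 FPKM in kidney and at most 3.26 elsewhere. The summed FPKM ranged from 574638 to 828807 per library, and the read depth behind each value is unknown.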

How the data were processed

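The goat table holds log2(FPKM + 1) values deposited by the authors. Per the study's methods, reads were mapped with TopHat, quantified with Cufflinks 2.2.1 (also named in the submitters' processing notes) as FPKM and log2 transformed with 1 added. The methods name CHIR_1.0 as the goat assembly, whereas the labels of these samples list only UMD3.1, and scaffold positions are as given with the proteins. The libraries were strand specific, and replicates were not pooled. FPKM was obtained by undoing the logarithm and subtracting 1. Depth is unknown, so no counting interval is given.

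Models above 0.5 FPKM in at least 3 of 9 libraries were fitted with limma 3.58.1 in R 4.3.3 (a mean per tissue, variance trend, Benjamini-Hochberg adjustment within each comparison), after the code was tested on simulated data. p-values measure the spread between these samples. Deviations from tissue means of same-numbered libraries correlated at 0.146 to 0.472 in 9 pairs (different numbers: -0.417 to 0.134). The study took all tissues from the same animals, and the numbers were taken to pair the samples. Calls and p-values come from the fit without this pairing unless a block is named. A fit with the number as a block was an alternative. Members named in the text are the 5 highest by mean FPKM and, per comparison and direction, the 5 largest called differences; other members were added after their values were seen. The members and lists were chosen with earlier results of these data known. Family patterns were mostly chosen after the sequences were seen. A hydrophobic N-terminus means a mean Kyte-Doolittle hydropathy of at least 1.8 in a window of 9 residues within the first 35. Lists by gene symbol (receptors, stress response, cell type markers) were not used, as no names were paired with these models. The protein sequences were not printed. The cattle and sheep tables were not used.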

Additional observations from a re-analysis of the deposited data

How the results depend on the processing

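Of the 62 member calls, 10 were lost when some single library was left out, and a further 5 could not be tested in some of these fits because the model (GOAT_ENSBTAP00000049320, GOAT_ENSP00000362123 or GOAT_ENSBTAP00000005775) no longer passed the filter. For the members named by the rule, their calls kept direction and significance in 664 repeats and lost significance in 38, and none reversed. These members were named for a high level or a large called difference, and only calls already made were repeated. Leaving out a library of the third tissue cannot change a difference, and repeats in which a member failed the filter were not counted. The 2 counts therefore do not measure how stable the calls are. With the replicate number as a block (paired fit), 26 members were called between heart and liver (23 without it), 20 between heart and kidney (18) and 23 between liver and kidney (21), with no call lost, and 2, 3 and 9 were elevated in heart, liver and kidney. The block changed no other call than those given with it above. The counts of members in this section are given without the share of all models, and describe the members alone.

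Leaving out each library in turn gave, in the same order, 19 to 23, 15 to 18 and 17 to 22 called members, median member differences of -0.64 to -0.07, -1.03 to -0.53 and -0.80 to -0.55, and 0 to 2, 1 to 3 and 5 to 10 elevated in heart, liver and kidney. The heart minus kidney median of -1.03 came without kidney library 1. The heart minus liver median of -0.07 came without liver library 1, where 30 members were tested. The shares ranged from 0.108% to 0.132% in heart, 0.380% to 0.438% in liver and 0.379% to 0.486% in kidney.

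Median ratio scaling gave medians of -0.13 (heart minus kidney) and -0.15 (liver minus kidney), and 5, 9 and 3 elevated members, and with the block added, an alternative chosen after seeing the data, 6, 10 and 3. Quantile normalization gave medians of -0.27 and -0.23, 11 calls between liver and kidney, and 5 and 4 elevated in heart and kidney. Of these 11 calls, 4 were higher in liver and 7 in kidney. Equal summed FPKM gave medians of -0.67 (heart minus liver) and -1.06 (heart minus kidney), with 0 elevated in heart and 12 in kidney. Between liver and kidney it gave 4 calls higher in liver and 17 in kidney, as on the deposited values. The liver minus kidney median was -1.07 with a pseudocount of 0.1 and -0.94 with the study's filter, which left 27 members and 1 elevated in liver. Without a filter 1 was elevated in heart. A minimum log2 difference of 1 left 0 in heart and 4 in kidney.

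With only the members that have a hydrophobic N-terminus, of which 14 were tested, 11, 7 and 8 were called, the medians were -1.02 (heart minus liver) and -0.018 (liver minus kidney), 0 and 2 were elevated in heart and kidney, and the shares were 0.0514%, 0.238% and 0.176%. These same members after median ratio scaling, chosen after seeing the data, gave 10, 6 and 10 calls, medians of -1.23, -0.26 and 0.88 (the last reversed), and 8 and 1 elevated in liver and kidney. The 14 include both members that passed the filter through liver alone, whose calls between liver and the other tissues follow from the filter. Fewer members can be called in a smaller list, and the cause of the other changes was not tested. No member had a copy suffix, so including copies changed nothing. Depth is unknown and limits the low models most, since log2(FPKM + 1) understates their differences.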

Other observations

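By mean FPKM on the deposited values, 17 of the 32 tested members were highest in kidney, 9 in liver and 6 in heart, beside 56.6%, 17.4% and 26% of all 13634 tested models. After median ratio scaling these numbers were 9, 13 and 10, beside 34.0%, 31.6% and 34.5%. The members' median level was 7.16 FPKM in heart, 16.8 in liver and 16.4 in kidney, against 5.72, 5.80 and 10.1 over all tested models. The 14 tested members with a hydrophobic N-terminus had a median heart minus liver difference of -1.02, and the 18 without had 0.10. No test was made of that difference. Both members that passed the filter through liver alone are among the 14, at -7.83 and -5.73, and neither is among the 18. Their high liver values follow from the filter and lower the median of the 14. Only 10 of the 33 members began with methionine, and a model incomplete at its start can lack a stretch that its protein has. The 18 are therefore not a set shown to stay outside the lumen.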
